A study of Mus musculus with 35 samples.

Results

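The genes described here are 49 mouse genes of DNA excision repair, strand-break repair and the replication machinery that fills repair gaps, read from a table of 39109 entries counted in striatal RNA. They are a list of gene symbols with no threshold on a measured value, drawn up with earlier results of these data known, and the mismatch repair genes were left out. All 49 symbols were found once each, and 48 had enough reads to be tested, the exception being the glycosylase gene Neil3. Each of 35 mice gave 1 library of striatal RNA, in a 2 by 2 design that crossed the HttQ111 allele with a deletion of Hdac2 in medium-spiny neurons (MSNs), the principal neurons of the striatum. HttQ111 is a mouse huntingtin allele given a long CAG repeat by knock-in, a model of Huntington's disease (HD), in which such repeats grow further in striatal neurons during life.

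There were 8 Htt+/+ mice with wild-type Hdac2 expression (Hdac2 WT) and 9 Htt+/+ mice with the deletion (Hdac2 KO). Of the mice heterozygous for the expanded allele (HttQ111/+), 7 were Hdac2 WT and 11 were Hdac2 KO. Mice were 21.71 to 23 weeks old, and both sexes were present in every group. The inherited repeat lengths were 110 to 140 in the HttQ111/+ Hdac2 WT group and 110 to 144 in the HttQ111/+ Hdac2 KO group. Hdac2 KO mice were homozygous for a floxed Hdac2 allele and carried the D9-Cre transgene, in which a fragment of Ppp1r1b, the gene of DARPP-32, drives Cre recombinase in MSNs from some weeks after birth. Other striatal cells of these mice keep Hdac2. By the labels no Hdac2 WT mouse in this series carried Cre, and by the sample sheet that accompanies the study most of them also held floxed alleles, so the presence of Cre and the deletion cannot be told apart. The floxed line came from a mixed background and was not fully backcrossed. The libraries were made from whole striatum, in which fewer cells of a type and less RNA per cell cannot be told apart.

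In base excision repair a glycosylase removes a damaged base, an AP endonuclease cuts the strand at the empty site, a polymerase fills the gap and a ligase seals it, with PARP enzymes and XRCC1 as sensors and scaffold of the break. Nucleotide excision repair cuts out a stretch of damaged strand and starts either from damage sensors that scan the genome or from an RNA polymerase stalled at a lesion, and double-strand breaks are rejoined by Ku, DNA-PKcs and ligase IV or by recombination. Neurons do not divide and depend on these routes throughout life, and several of the enzymes are known in the HD field for acting on CAG repeats.

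Of the 8 members with an adjusted p under 0.05 in any comparison, 4 were lower in Hdac2 KO striata on average over both Htt genotypes, and their promoters are shown because these members share 1 direction in that comparison. Each sequence runs 5′ to 3′ on the strand of its gene, from 250 bases before to 50 bases after the RefSeq start of transcription on GRCm38.p6. Capitals mark matches, on either strand, to the motifs searched. The Parp1 window is chr1:180568641-180568940 on the plus strand, that of Ercc6 is chr14:32513271-32513570 on the plus strand, that of Ddb1 is chr19:10605347-10605646 on the plus strand and that of Rfc5 is chr5:117388974-117389273 on the minus strand.
Parp1: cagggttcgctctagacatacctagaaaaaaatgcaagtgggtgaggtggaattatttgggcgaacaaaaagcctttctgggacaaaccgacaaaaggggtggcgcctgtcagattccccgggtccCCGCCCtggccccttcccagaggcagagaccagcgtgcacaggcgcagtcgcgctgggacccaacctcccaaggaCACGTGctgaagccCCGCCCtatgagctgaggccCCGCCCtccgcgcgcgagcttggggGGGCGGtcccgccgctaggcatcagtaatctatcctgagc
Ercc6: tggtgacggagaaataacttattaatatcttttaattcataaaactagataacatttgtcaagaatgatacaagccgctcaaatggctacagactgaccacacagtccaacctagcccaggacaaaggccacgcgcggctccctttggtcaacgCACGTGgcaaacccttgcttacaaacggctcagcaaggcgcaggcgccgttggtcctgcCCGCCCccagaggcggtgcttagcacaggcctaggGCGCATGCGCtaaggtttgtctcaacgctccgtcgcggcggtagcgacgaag
Ddb1: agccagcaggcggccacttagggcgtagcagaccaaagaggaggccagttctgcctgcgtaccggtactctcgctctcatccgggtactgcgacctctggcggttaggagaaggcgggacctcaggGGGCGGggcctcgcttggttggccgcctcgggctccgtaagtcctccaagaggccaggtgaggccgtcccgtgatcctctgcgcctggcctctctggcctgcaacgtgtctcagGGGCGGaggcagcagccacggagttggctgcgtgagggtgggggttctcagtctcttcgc
Rfc5: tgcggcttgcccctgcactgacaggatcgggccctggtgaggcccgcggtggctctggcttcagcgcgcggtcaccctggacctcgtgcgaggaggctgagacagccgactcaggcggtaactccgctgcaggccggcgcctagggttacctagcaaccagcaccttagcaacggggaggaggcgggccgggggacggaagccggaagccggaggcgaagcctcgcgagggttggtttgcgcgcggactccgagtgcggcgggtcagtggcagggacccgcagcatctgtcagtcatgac

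The Parp1 window holds 4 GC boxes (GGGCGG) and 1 E-box (CACGTG). The Ercc6 window holds 1 GC box, 1 E-box and 2 overlapping matches, 1 on each strand, to the NRF1-type motif GCGCATGC. The Ddb1 window holds 2 GC boxes, and the Rfc5 window holds no match to any of the motifs searched. The 6 motifs searched on both strands were these 3 with CCAAT, the E2F-type TTTNGCGC and the YY1-type CAAGATGGC. In the RefSeq promoter table, 40 of the 49 members matched, with 45 windows, and Neil2, Prkdc and Ercc3 were among the members with no entry. Windows of the members were rich in CpG, with a median of 23 CpG dinucleotides against 7 over all 32851 windows in the table. A GC box was found in 64.4% of the members' windows and in 35.7% of all windows, an E-box in 24.4% and 7.15%, an NRF1-type match in 20% and 2.71%, a CCAAT box in 48.9% and 37.4%, an E2F-type match in 8.89% and 1.38%, and a YY1-type match in 2.22% and 1.24%. These matches describe letters only, and the shares were not compared with windows of like CpG content.

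Library totals were 50970712 to 77867348 counts (median 57322618), which gave the 8 members that passed in any comparison from 23 counts in a library (Neil2) to 19972 (Ddb1). Levels are given as CPM, counts relative to the TMM-scaled size of the library, and fold changes come from an edgeR quasi-likelihood fit with 9 surrogate variables, so that a fold change can differ from the ratio of the group means. The targeted gene, counted over its whole interval, had 97.6 to 107 CPM in Htt+/+ Hdac2 WT and 89.4 to 99.2 CPM in Htt+/+ Hdac2 KO libraries, and 95.5 to 111 against 89.8 to 101 CPM in HttQ111/+ libraries. The groups overlapped, and as the floxed part covers only some exons and MSNs only some of the cells, the whole-gene count checks the labels only in part. Hdac2 was lower in the average Hdac2 KO effect (log2 fold change −0.1, adjusted p = 0.00171). MSN markers were present in every library, and their summed level over 9 genes was 7890 to 9060 CPM in Htt+/+ Hdac2 WT, 5720 to 7800 in HttQ111/+ Hdac2 WT, 7450 to 8790 in Htt+/+ Hdac2 KO and 6430 to 8160 in HttQ111/+ Hdac2 KO libraries. Cortical projection neuron markers summed to at most 161 CPM in the other groups and reached 416 CPM in 1 HttQ111/+ Hdac2 WT library (replicate 7). Extraction took place over 6 days, split almost by Hdac2 genotype, and only 2 Hdac2 KO libraries, 1 of each Htt genotype, share a day with Hdac2 WT libraries.

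The members were expressed over a wide range. Per kilobase of exon and in Htt+/+ Hdac2 WT mice (mean ± SD, n = 8), Ddb1, a subunit of the UV damage sensor and of cullin ubiquitin ligases, was highest at 42.6 ± 1.54 CPM, followed by the AP endonuclease gene Apex1 at 23.7 ± 1.36 and Parp1 at 14 ± 0.638. Below these came the TFIIH helicase gene Ercc3 at 9.72 ± 0.544, the Ku subunit gene Xrcc5 at 9.58 ± 0.57 and the single-strand binding subunit gene Rpa1 at 9.54 ± 0.314, which differed by less than their spread. Among the glycosylases Mpg was highest at 3.54 ± 0.326, in the middle of the members, and Ogg1 was next at 2.31 ± 0.196. Ung (0.149 ± 0.048), Neil2 (0.132 ± 0.0294) and Neil3 (0.05 ± 0.0333) were the lowest of all members. The table gives 1 interval per gene, introns included, so genes with long introns relative to their exon sequence, Xrcc4, Xrcc5, Xpa and Prkdc first among them, may stand too high on this scale by an amount that was not measured.

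**Figure D1:**
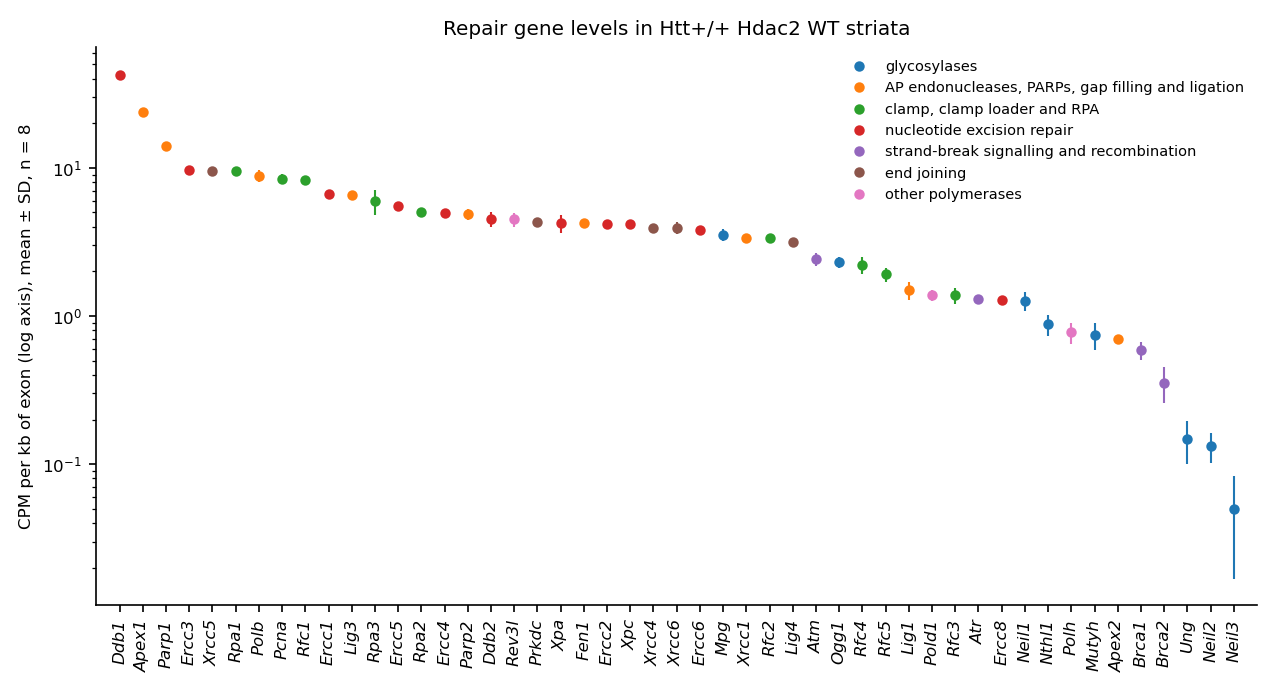
Level of each of the 49 members in Htt+/+ Hdac2 WT striata as CPM per kilobase of exon on a log axis, with points for the mean of 8 libraries, bars for the SD and colours for the role of the gene. Ddb1 stands highest at 42.6 and the glycosylase genes Ung, Neil2 and Neil3 stand lowest, under 0.15.

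The comparison of Hdac2 KO with Hdac2 WT addresses whether loss of this deacetylase from MSNs alters repair genes. In Htt+/+ mice 4 of 48 members changed, with Neil2 and Prkdc higher and Parp1 and Ercc6 lower, which is 8.33% of the members beside 17.8% of all 17126 genes tested (9.06% higher and 8.79% lower). In HttQ111/+ mice 5 members changed and all were lower, namely Parp1, Ercc6, Rfc5, Ddb1 and Ercc3, or 10.4% beside 16.5% of all 17169 genes (7.68% higher and 8.86% lower). In the average over both Htt genotypes 6 of 48 members passed, 12.5% beside 25.0% of all 17346 genes (12.9% higher and 12.1% lower), with Neil2 and Prkdc higher and Parp1, Ercc6, Rfc5 and Ddb1 lower. At a nominal p under 0.05 there were 9, 8 and 11 members in these comparisons (18.8%, 16.7% and 22.9%), beside 29.0%, 28.1% and 35.0% of all genes. The share of members called was thus below that of all genes in each of them, which was not tested. These counts moved with single libraries and with the covariates. They were 7 in Htt+/+ mice without HttQ111/+ Hdac2 WT replicate 7 (beside 20.8% of all genes) and 3 in HttQ111/+ mice without HttQ111/+ Hdac2 KO replicate 1 (beside 15.6%), and with the day of extraction as the only covariate they were 1, 0 and 1 (beside 4.8%, 1.93% and 4.62%). The typical change of a member was small. Without regard to sign, the members' log2 fold changes had a median of 0.062 in Htt+/+ mice, 0.054 in HttQ111/+ mice and 0.051 on average, beside 0.095, 0.082 and 0.082 over all genes. The median signed change was −0.014, −0.002 and −0.01 beside −0.001, −0.004 and 0.002. The 95% interval of the average effect lay within 1.2-fold either way for 39 of the 48 members.

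**Figure D2:**
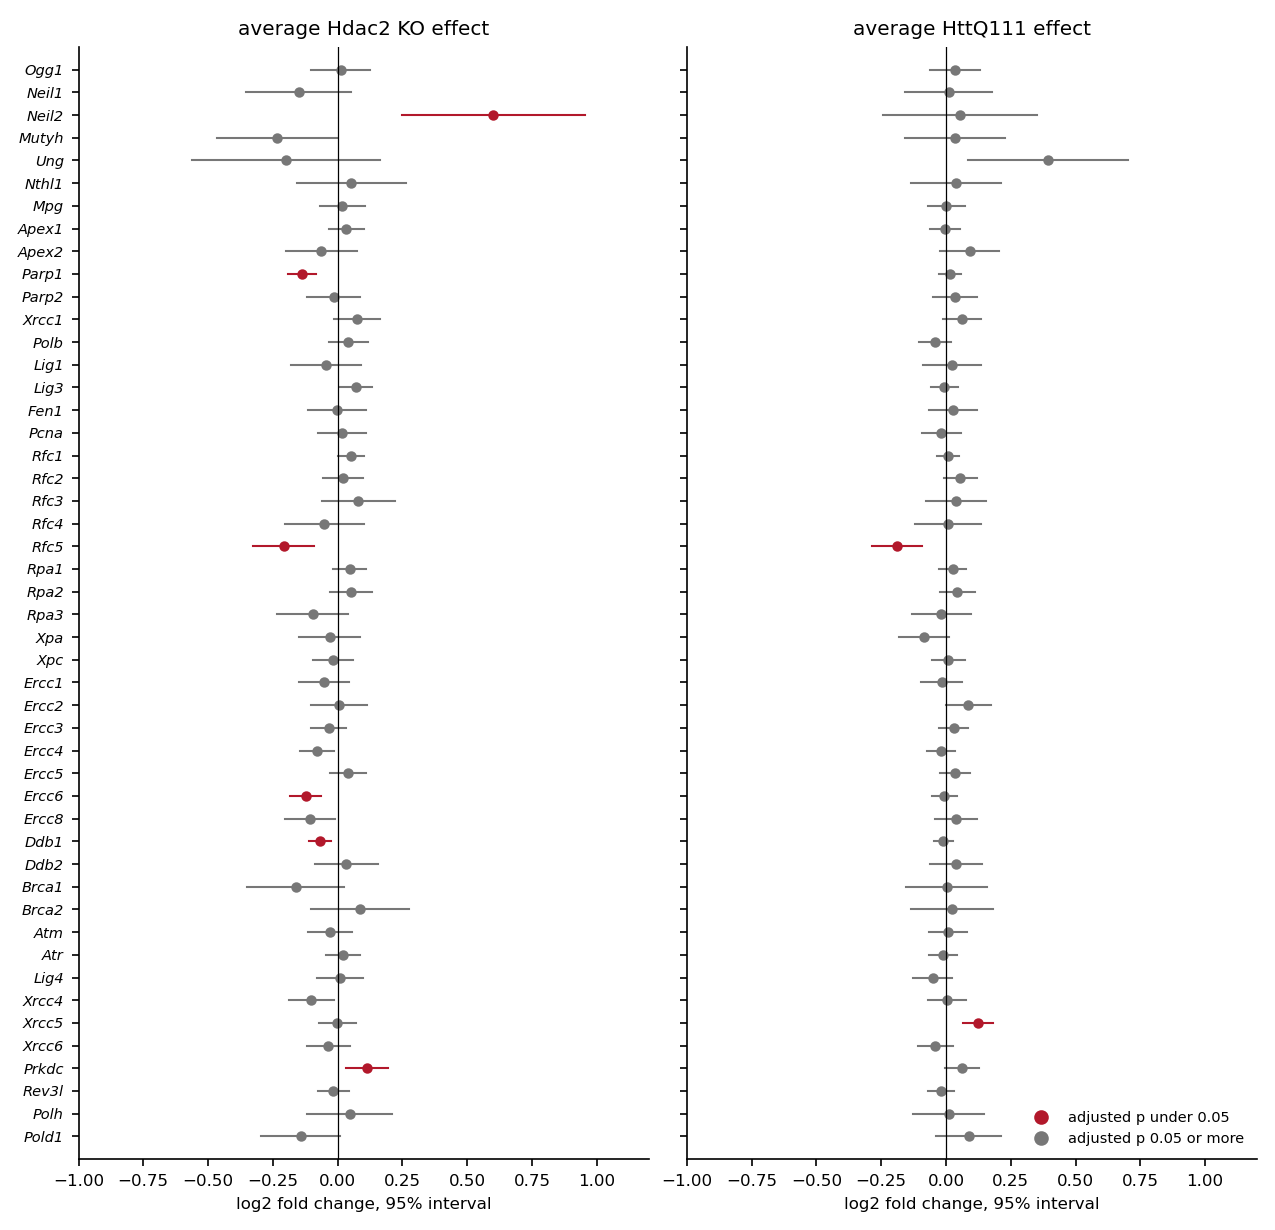
Log2 fold change (points) with its 95% interval (lines) for the 48 tested members, in the average Hdac2 KO effect on the left and the average HttQ111 effect on the right, with red for an adjusted p under 0.05. On the left 6 members are red, of which Neil2 at 0.6 is farthest from 0, and on the right 2 are, Rfc5 and Xrcc5.

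Parp1, the main enzyme that binds strand breaks and builds poly(ADP-ribose) there, had the lowest adjusted p of the members in all 3 of these comparisons. Its level in Htt+/+ mice was 69.5 to 79.6 CPM (median 72.9) with Hdac2 and 59.7 to 66.9 CPM (median 62.8) without it. In HttQ111/+ mice it was 69.8 to 76.5 CPM (median 72.3) with Hdac2 and 60.1 to 70.2 CPM (median 65) without it. All 9 Htt+/+ Hdac2 KO libraries lay below all 8 Htt+/+ Hdac2 WT libraries, and in HttQ111/+ mice the groups touched only between 69.8 and 70.2 CPM. The log2 fold change of Parp1 was −0.16 ± 0.03 (SE) in Htt+/+ mice (adjusted p = 0.00104), −0.12 ± 0.03 in HttQ111/+ mice (adjusted p = 0.00539) and −0.14 on average (95% interval −0.19 to −0.08, adjusted p = 0.000188). With the day of extraction as the only covariate these values were −0.26 (adjusted p = 0.00479), −0.205 (adjusted p = 0.0599) and −0.23 (adjusted p = 0.00782). The call in Htt+/+ mice was lost with a replicate block (−0.18, adjusted p = 0.11) and that in HttQ111/+ mice also with no filter on low counts (−0.1, adjusted p = 0.0577). HttQ111 did not move it past the threshold in either Hdac2 background, with an average log2 fold change of 0.01 (95% interval −0.03 to 0.06). Parp1 spans chr1:180568955-180601253 on the plus strand (GRCm38).

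Ercc6 encodes CSB, the factor that recognises RNA polymerase II stalled at a lesion and starts transcription-coupled repair. Its levels were 46.8 to 53.6 CPM (median 49.0) in Htt+/+ Hdac2 WT and 38.5 to 45.6 CPM (median 40.5) in Htt+/+ Hdac2 KO mice. In HttQ111/+ mice they were 43.1 to 50.1 CPM (median 43.9) with Hdac2 and 33.2 to 46.3 CPM (median 41.3) without it. The Htt+/+ groups did not overlap, while the HttQ111/+ groups overlapped over part of their ranges. Ercc6 had a log2 fold change of −0.13 ± 0.04 (SE, adjusted p = 0.0267) in Htt+/+ mice, −0.13 ± 0.03 (adjusted p = 0.00936) in HttQ111/+ mice and −0.12 (adjusted p = 0.00202) on average. Without surrogate variables these were −0.25 (adjusted p = 0.000193), −0.13 (adjusted p = 0.0788) and −0.19 (adjusted p = 6.41e-05). Ercc6 passed under 12 of 16 alternatives in Htt+/+ mice, 11 of 16 in HttQ111/+ mice and 12 of 15 on average (adjusted p up to 0.464 on average). The call in Htt+/+ mice was lost, for instance, with a replicate block (−0.04, adjusted p = 0.789). That in HttQ111/+ mice was lost, for instance, with the extraction date (−0.05, adjusted p = 0.835). Parp1 and Ercc6, both lower, were the only members whose Hdac2 KO and Hdac2 WT libraries did not overlap in Htt+/+ mice, 2 of 48 beside 4.70% of all genes tested, and no member separated in HttQ111/+ mice, where 1.43% of all genes did. Ercc6 spans chr14:32513521-32580989 on the plus strand.

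Other nucleotide excision repair genes moved little. Ddb1 was 259 to 289 CPM (median 275) in Htt+/+ Hdac2 WT and 236 to 272 CPM (median 254) in Htt+/+ Hdac2 KO libraries, and 258 to 284 CPM (median 275) against 242 to 279 CPM (median 258) in HttQ111/+ libraries. The groups overlapped in both pairs although the KO medians lay near the lowest WT values. For Ddb1 the log2 fold change was −0.08 ± 0.03 (SE, adjusted p = 0.036) in HttQ111/+ mice, where it was lost without HttQ111/+ Hdac2 KO replicate 1 (−0.06, adjusted p = 0.111), −0.07 ± 0.03 (adjusted p = 0.0741) in Htt+/+ mice and −0.07 (95% interval −0.11 to −0.03, adjusted p = 0.016) on average. Ddb1 passed under 9 of 16 alternatives in HttQ111/+ mice (adjusted p up to 0.37), 5 of 16 in Htt+/+ mice and 10 of 15 on average. In Htt+/+ mice its value was −0.145 (adjusted p = 0.104) with the extraction date and −0.03 (adjusted p = 0.599) without the mice whose ID begins with A. The average was −0.14 (adjusted p = 0.0857) and −0.04 (adjusted p = 0.255) under these same settings. Ddb1 had the smallest standard error of the members in the average effect (0.02), and its difference was the smallest that passed among them. Ddb1 spans chr19:10605625-10629813.

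Ercc3, the XPB helicase subunit of TFIIH, was lower in HttQ111/+ Hdac2 KO mice (25.2 to 28.6 CPM, median 27.7) than in HttQ111/+ Hdac2 WT mice (28.2 to 33.6 CPM, median 30.0). It was 25.1 to 30.0 CPM (median 27.9) in Htt+/+ Hdac2 WT and 25.3 to 30.5 CPM (median 27.4) in Htt+/+ Hdac2 KO mice. The HttQ111/+ Hdac2 WT median thus stood above those of the other groups, and its range overlapped each of theirs. The Htt+/+ Hdac2 KO range reached above that median. Upon Hdac2 KO, Ercc3 had a log2 fold change of −0.11 ± 0.04 (SE, adjusted p = 0.0469) in HttQ111/+ mice and 0.03 ± 0.05 (adjusted p = 0.702) in Htt+/+ mice. In HttQ111/+ mice Ercc3 passed under 11 of 16 alternatives. The HttQ111/+ value was −0.2 with the extraction date (adjusted p = 0.132) and −0.2 without the mice whose ID begins with A (adjusted p = 0.00824). The difference between the Hdac2 KO effects in both backgrounds, tested as the interaction, was −0.15 (95% interval −0.26 to −0.04) with a nominal p of 0.00981 and an adjusted p of 0.739 over all genes in edgeR's test, so it is not shown. The other 8 members of this class stayed short of the threshold in every comparison. In the average Hdac2 KO effect Ercc4, which with Ercc1 makes the nuclease that cuts 5′ of the lesion, had −0.08 (adjusted p = 0.0644) and Ercc8, which encodes CSA, had −0.11 (adjusted p = 0.105). Values for Xpa, Xpc, Ercc1, Ercc2, Ercc5 and Ddb2 lay within the class range of uncalled members, −0.11 to 0.04.

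Neil2, a glycosylase that removes oxidised bases and prefers single-stranded or bubble DNA, had the largest fold change and a very low level. It was 0.418 to 0.896 CPM (median 0.644) in Htt+/+ Hdac2 WT and 0.79 to 1.12 CPM (median 0.983) in Htt+/+ Hdac2 KO libraries. In HttQ111/+ mice it was 0.564 to 1.24 CPM (median 0.698) with Hdac2 and 0.462 to 1.28 CPM (median 1.05) without it. All 4 groups overlapped, and the HttQ111/+ Hdac2 KO group held both the highest library and 1 of the lowest. Neil2 had a log2 fold change of 0.67 ± 0.24 (SE, adjusted p = 0.0453) in Htt+/+ mice, 0.52 ± 0.21 (adjusted p = 0.0815) in HttQ111/+ mice and 0.6 (95% interval 0.25 to 0.95, adjusted p = 0.00956) on average. A library held only 23 to 99 counts of this gene, and the call in Htt+/+ mice was lost under 6 of 15 alternative settings (adjusted p 0.0126 to 0.349 over all of them), among them leaving out HttQ111/+ Hdac2 WT replicate 7 (0.61, adjusted p = 0.0506) or HttQ111/+ Hdac2 KO replicate 1 (0.62, adjusted p = 0.0601).

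The other glycosylases did not pass in any comparison. In the average Hdac2 KO effect Ogg1, the main enzyme against 8-oxoguanine, had a log2 fold change of 0.01 (95% interval −0.1 to 0.13), with group means of 5.06 ± 0.43, 5.21 ± 0.52, 5.2 ± 0.52 and 5.49 ± 0.59 CPM (SD) in Htt+/+ Hdac2 WT, HttQ111/+ Hdac2 WT, Htt+/+ Hdac2 KO and then HttQ111/+ Hdac2 KO mice. For Mpg, which removes alkylated bases, the value was 0.02 (95% interval −0.07 to 0.1). These 2 intervals stay within 1.2-fold, whereas those of Neil1, Mutyh, Ung and Nthl1 do not. Mutyh, which removes adenine paired with 8-oxoguanine, had −0.24 (adjusted p = 0.137) and Ung, the uracil glycosylase, had −0.2 (adjusted p = 0.47). Neil3 was near the limit of detection, with 2 to 51 counts in a library.

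Rfc5, a small subunit of the clamp loader that places PCNA on DNA, was lower on average both with Hdac2 KO and with HttQ111. Its level was 7.65 to 10.4 CPM (median 8.97) in Htt+/+ Hdac2 WT, 7.55 to 8.43 CPM (median 8.02) in Htt+/+ Hdac2 KO, 6.74 to 9.09 CPM (median 7.04) in HttQ111/+ Hdac2 WT and 6.31 to 8.72 CPM (median 6.75) in HttQ111/+ Hdac2 KO mice. The medians fall in that order, and each range overlaps the next. The average log2 fold change of Rfc5 was −0.21 (95% interval −0.33 to −0.09, adjusted p = 0.00738) for Hdac2 KO and −0.19 (95% interval −0.29 to −0.09, adjusted p = 0.0398) for HttQ111. The interaction was 0 (95% interval −0.19 to 0.19), an interval that reaches as far on either side as the HttQ111 effect is large. The Hdac2 KO effect within HttQ111/+ mice was −0.21 ± 0.07 (SE, adjusted p = 0.0334), and it passed under only 7 of 16 alternative settings, not without HttQ111/+ Hdac2 KO replicate 1 (−0.18, adjusted p = 0.09). The other pairwise comparisons of Rfc5 did not pass. They were −0.21 ± 0.08 (adjusted p = 0.0559) for Hdac2 KO in Htt+/+ mice and, for HttQ111, −0.19 ± 0.07 (adjusted p = 0.318) in Hdac2 WT and −0.19 ± 0.06 (adjusted p = 0.328) in Hdac2 KO mice. The average Hdac2 KO effect of Rfc5 was −0.14 (adjusted p = 0.0252) without surrogate variables and −0.1 (adjusted p = 0.628) with the extraction date. Its average HttQ111 effect did not pass without HttQ111/+ Hdac2 WT replicate 7 (−0.18, adjusted p = 0.0739). Rfc5 spans chr5:117378103-117389045 on the minus strand.

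No other gene of the clamp, its loader or RPA passed in any comparison. In the average Hdac2 KO effect the 8 others lay between −0.1 and 0.08, and in the average HttQ111 effect between −0.02 and 0.05. Pcna had 0.02 (95% interval −0.07 to 0.11) and −0.02 (95% interval −0.09 to 0.06), with 18.8 ± 2.33 to 20.3 ± 1.38 CPM (mean ± SD) over the 4 groups. The other small loader subunits Rfc2, Rfc3 and Rfc4 had 0.05, 0.04 and 0.01 with HttQ111.

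Prkdc, the catalytic subunit of DNA-PK that holds broken ends together, was 52.2 to 62.1 CPM (median 57.3) in Htt+/+ Hdac2 WT and 60.1 to 67.9 CPM (median 62.0) in Htt+/+ Hdac2 KO mice. It was 52.4 to 72.2 CPM (median 60.1) in HttQ111/+ Hdac2 WT and 51.5 to 70.4 CPM (median 61.9) in HttQ111/+ Hdac2 KO mice. The Htt+/+ Hdac2 KO group was narrow and lay high, overlapping the WT group between 60.1 and 62.1 CPM, and the HttQ111/+ groups covered nearly the same range. The log2 fold change of Prkdc with Hdac2 KO was 0.17 ± 0.05 (SE, adjusted p = 0.0267) in Htt+/+ mice, 0.05 ± 0.05 (adjusted p = 0.539) in HttQ111/+ mice and 0.11 (adjusted p = 0.034) on average. The difference between both backgrounds was −0.12 (95% interval −0.25 to 0.01, adjusted p = 0.881). In HttQ111/+ mice its sign turned without surrogate variables (0) and without the mice whose ID begins with A (−0.02), and the average effect kept its call under 7 of 15 alternatives, not without HttQ111/+ Hdac2 KO replicate 1 (0.105, adjusted p = 0.0503), surrogate variables (0.07, adjusted p = 0.159) or the mice whose ID begins with A (0.05, adjusted p = 0.55). Prkdc spans chr16:15637866-15842235, an interval that includes its introns.

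Among the remaining members of excision and single-strand break repair, none besides Parp1 passed. In the average Hdac2 KO effect Lig3, the ligase that works with XRCC1, had 0.07 (95% interval 0.01 to 0.13, adjusted p = 0.086), Xrcc1 had 0.08 (adjusted p = 0.238), Polb had 0.04 (adjusted p = 0.483) and the flap nuclease gene Fen1 had 0 (adjusted p = 0.98). Parp2, the close relative of Parp1, had −0.02 (95% interval −0.12 to 0.09), with group means of 17 ± 0.9 to 18.2 ± 1.3 CPM (SD). All 9 genes of this class had an average interval within 1.2-fold. The break-signalling kinase genes Atm and Atr had −0.03 and 0.02, with intervals within 1.2-fold, and the recombination genes Brca1 and Brca2 had −0.16 and 0.09 with wider intervals of −0.35 to 0.03 and −0.1 to 0.28. In end joining, Xrcc4 had −0.1 (adjusted p = 0.081), Xrcc6 −0.04 and Lig4 0.01. Rev3l, Polh and Pold1, polymerase genes of lesion bypass and of replication, had −0.02, 0.05 and −0.14, and none passed.

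**Figure D3:**
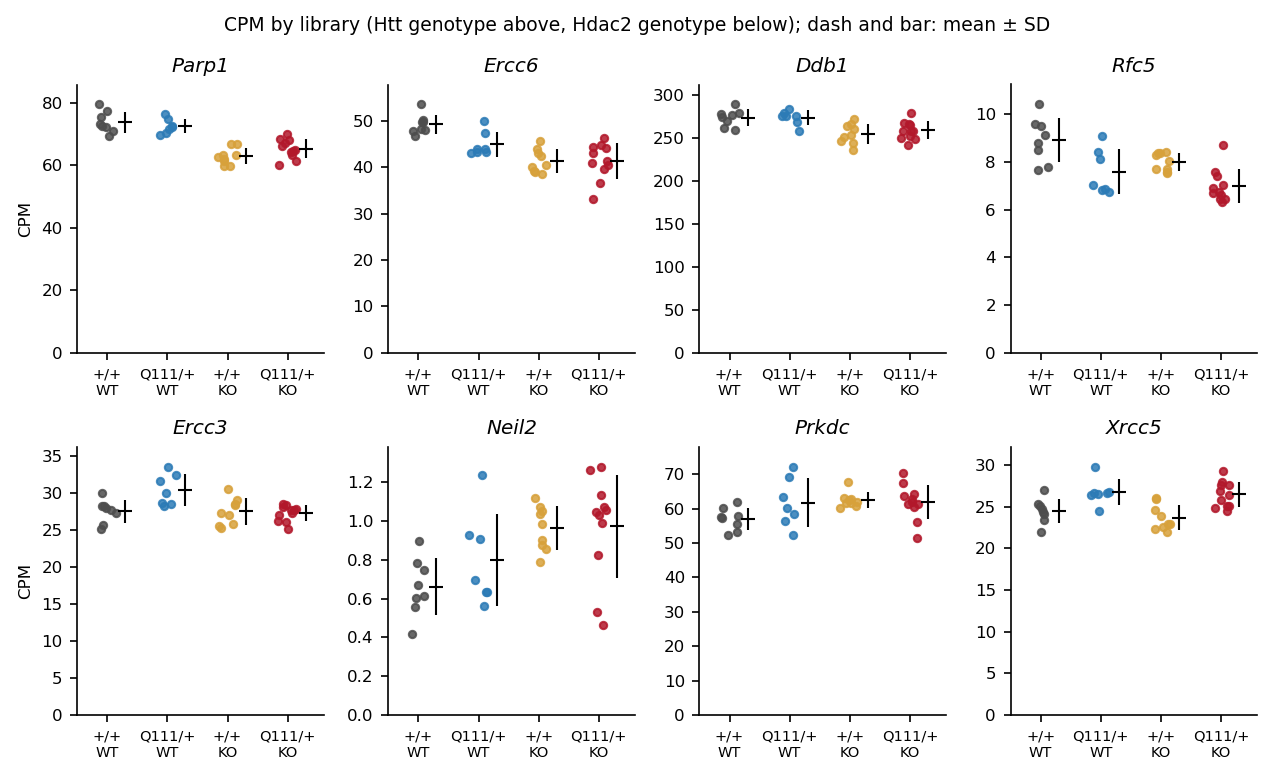
CPM in each of the 35 libraries for the 8 members that passed in any comparison, with 1 point per mouse, columns for the 4 genotype groups and a dash with a bar for the mean ± SD, on axes that start at 0. The Htt+/+ Hdac2 KO points of Parp1 and Ercc6 lie below all Htt+/+ Hdac2 WT points, and in the other panels the Hdac2 KO and Hdac2 WT points of each Htt genotype overlap.

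The comparison of HttQ111/+ with Htt+/+ mice asks whether the expanded allele alters repair genes at this age. In Hdac2 WT mice 0 of 48 members passed by edgeR's test, beside 0.403% of all 17133 genes, 5 had a nominal p under 0.05 (10.4% of members, 10.9% of all genes), and DESeq2 called 0. In Hdac2 KO mice 0 passed beside 0.00584% of all genes, 2 had a nominal p under 0.05 (4.17% of members, 7.52% of all genes), and DESeq2 called 1, Xrcc5. The average effect over both Hdac2 backgrounds called 2 members, Rfc5 lower and Xrcc5 higher, which is 4.17% beside 1.27% of all 17346 genes. At a nominal p under 0.05 there were 3 members (6.25%, beside 12.3% of all genes). In that average the median log2 fold change of the members was 0.013 beside 0.001 for all genes, and 45 of 48 members had an interval within 1.2-fold. No member had groups that did not overlap in either HttQ111 comparison, beside 0.140% and 0% of all genes.

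Xrcc5 encodes Ku80, which with Ku70 binds the ends of double-strand breaks. It was 22 to 27 CPM (median 24.5) in Htt+/+ Hdac2 WT and 24.5 to 29.8 CPM (median 26.6) in HttQ111/+ Hdac2 WT mice. It was 21.9 to 26 CPM (median 22.9) in Htt+/+ Hdac2 KO and 24.5 to 29.3 CPM (median 26.4) in HttQ111/+ Hdac2 KO mice. The HttQ111/+ groups lay higher in both backgrounds and overlapped the Htt+/+ groups. The log2 fold change of Xrcc5 was 0.11 ± 0.04 (SE, adjusted p = 0.35) in Hdac2 WT mice, 0.14 ± 0.04 (adjusted p = 0.155) in Hdac2 KO mice and 0.12 on average (95% interval 0.06 to 0.18, adjusted p = 0.0247). On average Xrcc5 passed under 12 of 15 alternatives (adjusted p up to 0.215). Its partner gene Xrcc6, which encodes Ku70, had −0.04 (95% interval −0.11 to 0.02). Xrcc5 spans chr1:72307421-72394952. MSN markers moved with the same contrast, 7 of 9 lower in the average HttQ111 effect and 0 higher, beside 1.27% of all genes called in either direction. The part of these markers' change in the values of Rfc5 and Xrcc5 was not tested.

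The largest HttQ111 value of a member that did not pass was that of Ung, with an average log2 fold change of 0.39 (95% interval 0.09 to 0.7, adjusted p = 0.245) at 0.473 to 1.25 CPM in Htt+/+ Hdac2 WT and 0.577 to 1.25 CPM in HttQ111/+ Hdac2 WT mice. Apex2, another AP endonuclease, had 0.21 (adjusted p = 0.358) in Hdac2 WT mice. Parp1, Ercc6 and Ddb1, which were lower with Hdac2 KO, had average HttQ111 values of 0.01, −0.01 and −0.01, each with an interval within 1.2-fold. These values come from the fit with surrogate variables, and for Ercc6 the CPM levels differed more in Hdac2 WT mice. There its medians were 49.0 CPM in Htt+/+ and 43.9 CPM in HttQ111/+ mice, against 40.5 and 41.3 CPM in Hdac2 KO mice.

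The interaction, the HttQ111 effect in Hdac2 KO minus that in Hdac2 WT mice, asks whether the deletion changes the response to the expanded allele. No member passed (0 of 48 beside 0.00577% of all genes), 2 had a nominal p under 0.05 in edgeR's test (4.17% of members, 5.63% of all genes), and DESeq2 called 0. These 2 were Ercc3 and Apex2, with −0.15 and −0.23. The intervals were wide, and for 35 of 48 members they lay within 1.2-fold.

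Only 2 extraction days held both Hdac2 genotypes at the same Htt genotype. On 25 May there were 1 HttQ111/+ Hdac2 KO library (replicate 1) and 2 HttQ111/+ Hdac2 WT libraries (replicates 4 and 7). On 27 May there were 1 Htt+/+ Hdac2 KO and 3 Htt+/+ Hdac2 WT libraries. A single library can easily lie outside the range of so few others by chance, and the share of all genes that did so was not counted. Some calls changed when HttQ111/+ Hdac2 KO replicate 1 or HttQ111/+ Hdac2 WT replicate 7 was left out. This replicate 1 was also the highest library of its group for Neil2 and for Prkdc. Parp1 was 65 CPM in the Hdac2 KO library against 72.8 to 75 CPM on 25 May and 59.8 against 69.5 to 72.4 CPM on 27 May, lower on both days. Ercc3 was also lower on both days, 27.9 against 28.5 to 32.5 CPM and 25.8 against 28.3 to 30 CPM. Its fitted log2 fold change in Htt+/+ mice, the background of 27 May, was however 0.03. Neil2 was higher on both days by small margins, at 1.28 against 0.926 to 1.24 CPM and then 0.902 against 0.672 to 0.896 CPM. Prkdc was also higher on both days, at 70.4 against 58.5 to 63.5 CPM and then 62.8 against 57.2 to 62.1 CPM. Of the other genes called for Hdac2 KO, Ercc6 changed side, and Rfc5 and Ddb1 were each lower on 1 day and overlapped on the other. Ercc6 was 44.5 against 43.2 to 43.9 CPM on 25 May, where it was higher, and 42.5 against 48 to 50.2 CPM on 27 May. Rfc5 was 6.31 against 6.83 to 6.85 CPM on 25 May but 8.28 CPM on 27 May, inside the Hdac2 WT range of 7.78 to 9.15 CPM. Ddb1 was 258 against 258 to 275 CPM on 25 May and 236 against 259 to 289 CPM on 27 May. With the day as a covariate in place of the surrogate variables, Parp1 alone of the members passed in the average Hdac2 KO effect.

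Both Htt genotypes were present on 3 days among Hdac2 WT and on 3 days among Hdac2 KO libraries. On these days a group held 2 or 3 libraries in Hdac2 WT mice and 1 to 5 in Hdac2 KO mice. Ranges of so few libraries can easily separate by chance, and the share of all genes that did so was not counted. Rfc5 was lower in HttQ111/+ than in Htt+/+ libraries with no overlap on all 3 days in Hdac2 WT mice, at 8.12 to 9.09 against 9.5 to 9.57 CPM on 24 May, 6.83 to 6.85 against 7.65 to 10.4 CPM on 25 May and 6.74 to 7.04 against 7.78 to 9.15 CPM on 27 May. In Hdac2 KO mice Rfc5 was lower with no overlap on 1 day only, 26 May (6.44 to 6.74 against 7.58 to 8.43 CPM), and the groups overlapped on 31 May (6.61 to 7.59 against 7.55 to 8.39 CPM) and on 3 June (6.44 to 8.72 against 8.02 CPM). Xrcc5 was higher with no overlap on 1 of 3 days in Hdac2 WT mice, 25 May (26.6 to 29.8 against 22 to 24.1 CPM), and on 2 of 3 days in Hdac2 KO mice, 31 May (25.1 to 26.4 against 21.9 to 24.6 CPM) and 3 June (24.5 to 29.2 against 22.9 CPM). On the other days the Xrcc5 ranges overlapped. Ercc3 was higher in HttQ111/+ libraries with no overlap on all 3 days in Hdac2 WT mice. The ranges were 28.2 to 30 against 27.7 to 28, 28.5 to 32.5 against 25.1 to 27.3 and 31.6 to 33.6 against 28.3 to 30 CPM. In Hdac2 KO mice it was lower on 1 of 3 days and overlapped on 2. Its HttQ111 value in Hdac2 WT mice was 0.1 (nominal p = 0.0255, adjusted p = 0.37 in edgeR's test).

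**Figure D4:**
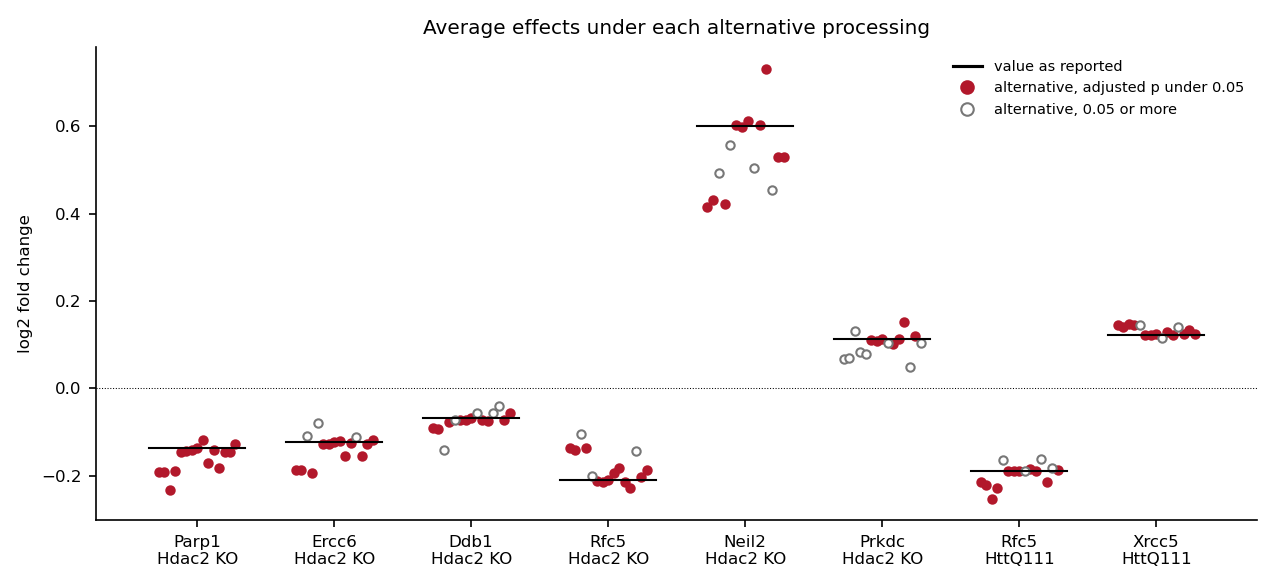
Average log2 fold changes of the members that passed (black lines) beside the values under each alternative processing (points, filled where the adjusted p stayed under 0.05). Every alternative keeps the direction of the reported value for these 8 effects, all 15 points of Parp1 are filled, and 7 of 15 points of Prkdc are.

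Further genes of the same pathways give a setting for these values. Of 28 other excision repair genes, 3 were higher and 3 lower in the average Hdac2 KO effect, in which 12.9% of all genes were higher and 12.1% lower, and the largest changes were those of Smug1, another uracil glycosylase (log2 fold change −0.47, adjusted p = 1.06e-11), Cetn2 of the XPC complex (0.2, adjusted p = 1.06e-05) and Gtf2h2 of TFIIH (−0.16, adjusted p = 0.00124). Of 30 tested other strand-break repair genes, 2 were higher and 4 lower, led by Rad54b (−0.44, adjusted p = 1.79e-05), Rbbp8, which starts end resection (0.38, adjusted p = 0.00062), and Xrcc3 (−0.38, adjusted p = 0.000615). The list of other replicative and translesion polymerase genes also holds genes that do not encode polymerases. Of its 19 tested genes, 1 was higher and 1 lower, with Polk at 0.15 (adjusted p = 0.0086), Polq at 0.13 (adjusted p = 0.38) and Prim2 at 0.12 (adjusted p = 0.195). The lower one was Ube2b, which encodes a ubiquitin-conjugating partner of RAD18 (−0.11, adjusted p = 0.00444) and is named here after its values were seen. In the average HttQ111 effect 0 genes of these lists passed in edgeR's test or in DESeq2, where edgeR called 1.27% of all genes. At a nominal p under 0.05 there were 3 of 28, 5 of 30 and 2 of 19 genes of the respective lists, beside 12.3% of all genes.

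Damage-response and cell-cycle genes were read the same way. Of 15 p53 target genes, 3 were higher and 0 lower in the average Hdac2 KO effect, in which 12.9% of all genes were higher and 12.1% lower. The 3 were Sesn2 (0.31, adjusted p = 0.00177) and, named after their values were seen, Ccng1 (0.17, adjusted p = 0.00373) and Plk2 (0.16, adjusted p = 0.00678), while Eda2r had 0.52 (adjusted p = 0.0707) and Btg2 had 0.32 (adjusted p = 0.0656). By background, 4 p53 target genes were higher in Htt+/+ mice, these 3 and Phlda3 (0.19, adjusted p = 0.0455), beside 9.06% of all genes. In HttQ111/+ mice 0 passed in edgeR's test or in DESeq2. At a nominal p under 0.05 there were 5 of 15 in each background, beside 29.0% of all genes in Htt+/+ and 28.1% in HttQ111/+ mice. In the interaction 0 of the 15 passed and 0 had a nominal p under 0.05, so a difference between the backgrounds is not shown. Of 20 S-phase genes, 0 were higher and 2 lower, E2f1, a transcription factor of the G1 to S transition (−0.58, adjusted p = 9.51e-07), and Ccne2 (−0.37, adjusted p = 0.000561), while Cdt1 had −0.25 (adjusted p = 0.437). With HttQ111 on average, 0 genes of either list passed in edgeR's test or in DESeq2, and 1 gene of each had a nominal p under 0.05. Markers of neuroblasts and dividing cells summed to 24.3 to 81 CPM over 8 genes in all libraries, and 1 of the 8 was higher in the average Hdac2 KO effect. In that comparison 2 of 9 MSN markers were higher and 1 lower, 1 of 6 astrocyte markers was lower, 1 of 5 tested choroid plexus markers was higher, and 0 markers of oligodendrocytes, their precursors, microglia, endothelial cells or cortical neurons passed. The part of cell makeup in the members' values was not tested.

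**Figure D5:**
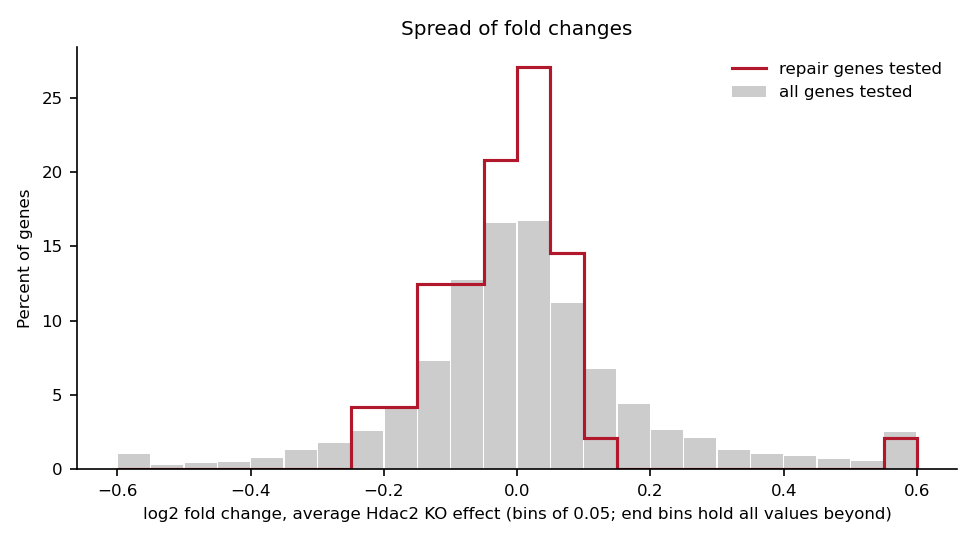
Share of genes, in percent, in bins of log2 fold change for the average Hdac2 KO effect, with grey bars for all 17346 genes tested and a red line for the 48 tested members, the end bins holding all values beyond. The members gather nearer 0, with 27.1% in the bin from 0 to 0.05 beside 16.7% of all genes.

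Reads where genes overlap limit some of these values. Intervals of 16 of the 49 members overlap another gene of the table, such as Xrcc6 with Desi1 (153 CPM), Xrcc4 with Tmem167 (90.8 CPM) and Apex1 with Tmem55b (53.4 CPM), each on the opposite strand. None of the 8 members that passed in any comparison overlaps a gene of over 250 nt.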

How the data were processed

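RNA-seq counts of 35 mouse striata were analysed, 1 library per mouse, grouped by the genotype in the labels. The authors deposited raw read counts per gene without normalization. Per the paper's methods, they made stranded mRNA libraries, aligned the paired ends to GRCm38 by GSNAP, and used bedtools to count uniquely aligned reads at all Ensembl genes. The deposited table gives 1 interval per gene, from its first to its last base with introns included. Whether strand was used is not given in the sources used here.

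Left out were 2 mitochondrial rRNA genes, 92 ERCC spike-ins and 6152 genes no longer than 250 nt (in place of the authors' list, held here in part). Testing a gene took 6 counts or more throughout 1 of the groups compared. Library sizes were normalized by TMM, svaseq (sva 3.50.0) gave 9 surrogate variables for a model of the 4 groups, and fold changes were tested with edgeR 4.0.16's quasi-likelihood F test in its older form (R 4.3.3), with 22 residual degrees of freedom and Benjamini-Hochberg adjustment over all genes tested. Each pairwise contrast had its own fit, and the average effects and the interaction shared a fit of 17346 genes. Intervals are 95% intervals from the same fit. CPM values use the TMM-scaled library sizes, and exon lengths come from GENCODE annotation of GRCm38. The procedure was tested on simulated counts. Groups of libraries were called not overlapping where every CPM value of one lay below every value of the other.

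Alternatives covered covariates, normalization, DESeq2 1.42.0, filters, subsets of libraries and a replicate block. Leaving out HttQ111/+ Hdac2 WT replicate 7 or HttQ111/+ Hdac2 KO replicate 1 (the highest total count) was added after the data were seen. No 2 libraries of a group agreed within sampling noise, the closest pair of any group having a chi-square of 7.18 per gene. The members and the other lists were chosen with earlier results of these data known. Members are named in full where an adjusted p was under 0.05 in any comparison, and of each other list the 3 largest average Hdac2 KO effects are named. Promoter sequences are RefSeq's on GRCm38.p6. No column of the count table was left unused.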

Additional observations from a re-analysis of the deposited data

Results flagged for a closer look

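Each of the 8 members that passed in any comparison was examined for single libraries far from the rest of their group, in the groups of 7 to 9 mice, which gave 24 tests, and chance alone marks about 1 in 20 groups. A pair of them stood out. Prkdc was 67.9 CPM in Htt+/+ Hdac2 KO replicate 3, with the next library at 63.0 CPM. Xrcc5 was 29.8 CPM in HttQ111/+ Hdac2 WT replicate 4, with the next at 26.8 CPM. What sets these libraries apart was not tested.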

How the results depend on the processing

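Of the named members, Parp1 kept its direction in the average Hdac2 KO effect under all 15 alternatives and its call under each of them (adjusted p 2.32e-08 to 0.0206). Neil2, Ercc6, Ddb1, Rfc5, Prkdc and Xrcc5 kept the direction of their called average effects, but not always the call. For Hdac2 KO the call was kept under 10 of 14 alternatives for Neil2 and 10 of 15 for Ddb1. It was kept under 12 of 15 for Ercc6 and for Rfc5, and under 7 of 15 for Prkdc. For HttQ111 it was kept under 11 of 15 for Rfc5 and 12 of 15 for Xrcc5. Sign changed for Ercc3 in Htt+/+ mice with no surrogate variables (−0.004), sex (−0.001), extraction date (−0.047) or without the mice whose ID begins with A (−0.014), for the average Hdac2 KO effect of Ercc3 with the block (0.007), and for Prkdc in HttQ111/+ mice with no surrogate variables (0) or without the A mice (−0.024).

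Members called for Hdac2 KO in Htt+/+ mice (4) were 8 with no surrogate variables, with sex or with only the 2 groups compared, 7 with ID series or without HttQ111/+ Hdac2 WT replicate 7, and 1 with extraction date or no filter. In HttQ111/+ mice (5) they were 0 with extraction date, 1 with no filter or in males only, 2 with no surrogate variables or without the A mice, and 3 with sex or without HttQ111/+ Hdac2 KO replicate 1. In the average Hdac2 KO effect (6) they were 10 with no surrogate variables or sex, 1 with extraction date, and 3 with no filter or without the A mice. For HttQ111 in Hdac2 WT mice (0) they were 2 with extraction date, 3 with ID series and 1 without the A mice, in Hdac2 KO mice (0) 1 with DESeq2, and on average (2) 0 with no filter or in males only and 1 without HttQ111/+ Hdac2 WT replicate 7. The interaction stayed at 0.

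The median log2 fold change of the members moved by more than its spread with extraction date (−0.051 for Hdac2 KO in HttQ111/+ mice, 0.046 for HttQ111 in Hdac2 WT mice, −0.052 and 0.047 for the average Hdac2 KO and HttQ111 effects), with ID series (0.055 for HttQ111 in Hdac2 WT mice) and without the A mice (−0.036 for Hdac2 KO in HttQ111/+ mice, −0.033 for the interaction). The cause of these differences was not tested, beyond the smaller number of libraries or larger number of genes that some alternatives hold.

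Replicate numbers are shared between groups, and the labels do not say what they mark. The deviations of same-numbered libraries had a mean correlation of 0.0576 (lowest −0.336), against −0.00626 for pairs with different numbers. Only 4 of 35 libraries correlated best with their own number, and the numbers were not used as pairs in the main fit. With a replicate block, 0 members passed for Hdac2 KO in Htt+/+ mice, 2 in HttQ111/+ mice, 1 in the average Hdac2 KO effect and 0 in the average HttQ111 effect. Neil2 and Neil3 lie where counts limit what can be detected, and extraction date and Hdac2 genotype overlap too little to be told apart.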
